A study of Mus musculus with 28 samples.

Results

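The clustered protocadherins measured here are the rows of the deposited matrix whose mouse gene symbol, looked up from the Entrez ID, begins with Pcdha, Pcdhb or Pcdhg. They are 28 of the 19421 rows, namely 2 of the alpha cluster (Pcdha1 and Pcdhac2), 20 of the beta cluster (Pcdhb2 to Pcdhb22 without Pcdhb9) and 6 of the gamma cluster (Pcdhga1, Pcdhga2, Pcdhgb2, Pcdhga7, Pcdhgb8 and Pcdhgc3). RefSeq lists 58 such symbols in mouse, 14 alpha, 22 beta and 22 gamma. The other 30 symbols were not analysed here, and whether reads from them entered the 28 rows is not given in the sources used here. A further 107 rows had no symbol.

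The libraries came from 7 mouse embryonic stem cell (ESC) lines, all derived from the parental line A2loxCre, in which doxycycline (Dox) switches on a cassette of transcription factors together with the yellow fluorescent protein mVenus. The lines carry Atoh1 (iAtoh1), Gfi1 (iGfi1), Pou4f3 (iPou4f3), Gfi1 and Atoh1 (iG+A), Gfi1 and Pou4f3 (iG+P), Pou4f3 and Atoh1 (iP+A), or all of Gfi1, Pou4f3 and Atoh1 (iGPA), which are factors of hair cell (HC) development. Each line was grown as embryoid bodies (EBs), aggregates that differentiate into mixed cell types, and RNA was taken at day 6 with Dox (2 µg/ml for the last 48 h) or without it (No Dox). There were 2 replicates per condition, each a different clone according to the series record, which gives 28 libraries. The Dox libraries hold sorted mVenus+ cells and the No Dox libraries whole unsorted EBs, so the effects of Dox and of sorting cannot be told apart. The No Dox cells carry the same silent cassette, and Dox without a cassette was not among the groups used here.

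Clustered protocadherins are neuronal cell surface cadherins encoded by gene arrays that lie side by side on 1 chromosome. In the alpha and gamma clusters each variable first exon has its own promoter and encodes the whole ectodomain, and is spliced to constant exons that the cluster's members share, whereas beta genes have a single exon and no constant part. A neuron uses only some of the promoters, and proteins that match across all isoforms bind between cells, which is the basis of self-avoidance of neurites. The C-type members, here Pcdhac2 and Pcdhgc3, sit at the ends of the alpha and gamma arrays and are used more uniformly between neurons than the others.

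This structure bears on the measurement. In the GENCODE M1 annotation of NCBIM37, which is mm9, the 3 clusters lie on the plus strand of chromosome 18: alpha at chr18:37089939-37347311, beta at chr18:37424652-37681073 and gamma at chr18:37833989-38001527. Of the alpha transcripts with several exons, 9 of 10 hold 3 exons whose start another of them uses. These exons make up 15.61% to 54.43% of their length. They span 459 bases in some models and 2860 in others, so the models differ in where the exons end. The 15.61% is from a model with 459 bases. In 9 of 10 gamma transcripts, 3 exons shared in this way make up 41.71% to 45.24%. Reads from these exons cannot be assigned to 1 member, and which transcripts stand behind each alpha or gamma row is not given in the sources used here. The alpha and gamma values are therefore uncertain as measures of single members, and a shift between rows of 1 cluster can be a shift in how shared reads were split. Beta genes have their own exon. In the beta members other than Pcdhb20, 72.9% (Pcdhb8) to 94.9% (Pcdhb19) of the stretches of 31 bases occur in no other gene with protein-coding transcripts. Pcdhb20, a pseudogene in GENCODE, has no value, and genes without protein-coding transcripts were not compared. A separate row, Gm37013, is annotated across the alpha and gamma clusters and stood between 792 and 1762 normalized counts. It was not counted as a member.

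Depth, estimated from the spacing of low values, was 30350000 to 48010000 reads per library, and the value of 1 read was 0.816 to 1.22 normalized counts. Replicates correlated at 0.9798 to 0.9907 across genes. Each transgene was above its own No Dox libraries by a log2 difference of at least 6.51 in every line whose label names it and by at most 3.11 in any other line. Markers of other cells in the EBs also moved. The 14 mesenchymal markers fell in 4 (iAtoh1), 4 (iGfi1), 7 (iG+A), 8 (iG+P), 2 (iP+A) and 11 (iGPA) cases, and the 12 blood markers in 7 (iAtoh1), 6 (iG+A), 2 (iG+P), 6 (iP+A) and 5 (iGPA). Of the mesenchymal list 1 rose in iP+A and 1 in iGPA, both times Thy1, and of the blood list Runx1 rose in iGfi1. Over all fitted genes, 0.606% (iPou4f3) to 5.36% (iG+P) fell and 1.47% (iPou4f3) to 8.65% (iGPA) rose. The part of these marker changes in the results below was not tested. In bulk RNA, fewer cells of a type and less RNA per cell cannot be told apart.

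Levels in untreated EBs ranged widely among the members. Over the 14 No Dox libraries Pcdhgc3 had a median of 5079 normalized counts (3522 to 7792), Pcdhgb8, which RefSeq annotates as a transcribed pseudogene, 3505 (2589 to 3924), Pcdhga1 2055 (1630 to 2458) and Pcdhga2 1280.1 (827 to 2047). Pcdhga7 had 363 (36.8 to 904), Pcdhac2 469 (206 to 689) and Pcdha1 130.1 (77.2 to 263). Pcdhgb2 was listed at 0 in all 14. These alpha and gamma levels are not per length, since no gene length could be assigned to their rows, and the values are set here for comparison between libraries rather than between members.

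**Figure D1:**
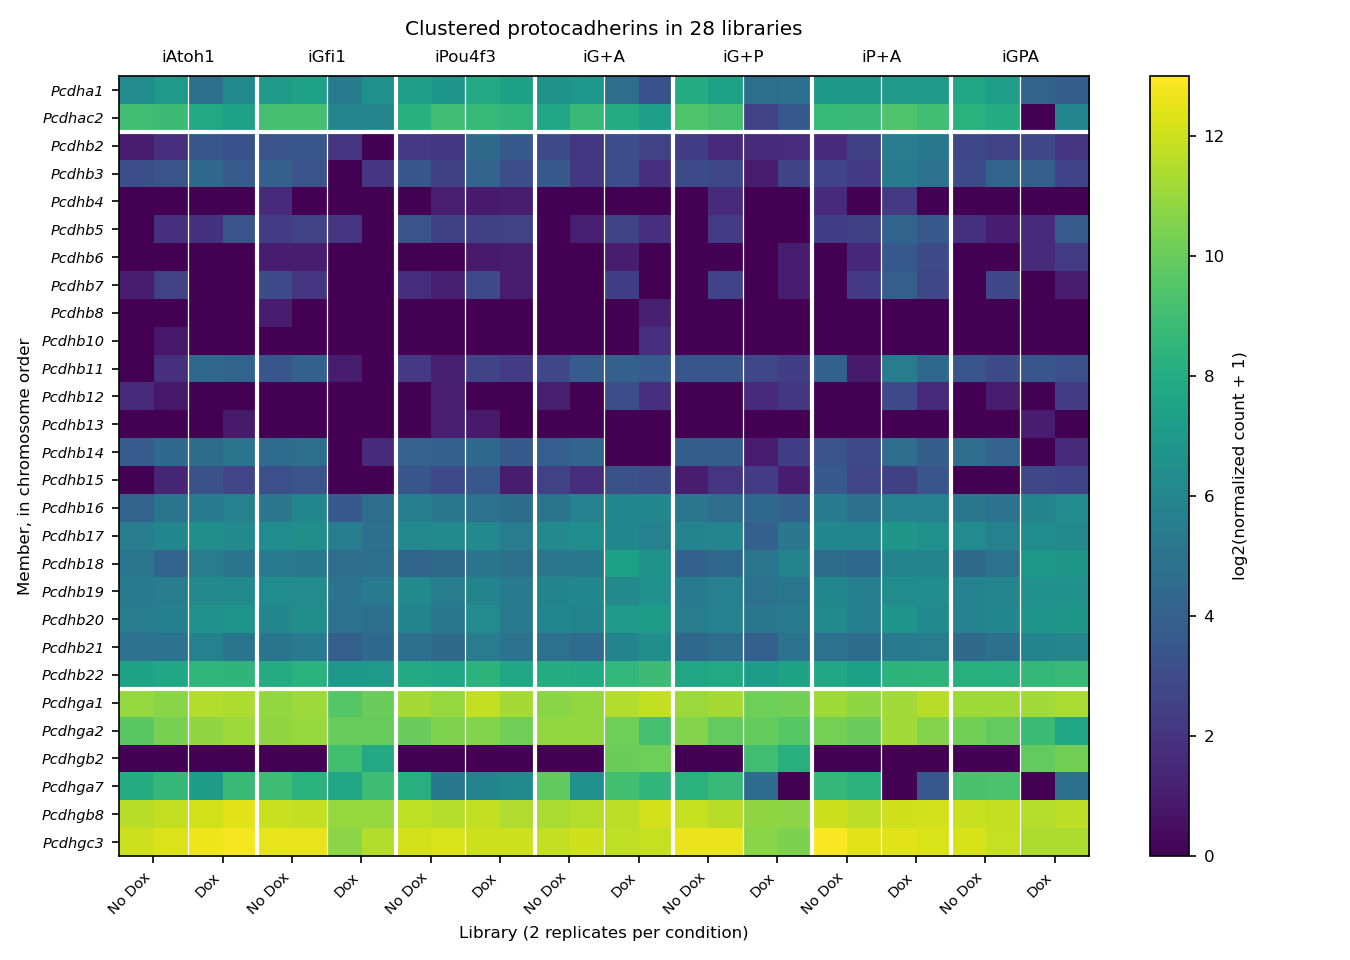
Level of each of the 28 members (rows, in chromosome order, white lines between the alpha, beta and gamma clusters) in each of the 28 libraries (columns, 2 replicates per condition), as log2(normalized count + 1) on the colour scale. Pcdhgb2 is at 0 outside 4 Dox groups, and the beta rows from Pcdhb16 on are brighter than those before.

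Within the beta cluster the level changed along the array. The 7 genes at the 3′ end, Pcdhb16 to Pcdhb22, held a median of 91.6% of all beta counts (79.05% to 98.26% over the libraries). Per kilobase of exon, their mean level in untreated EBs was 5.22 to 77.4 normalized counts, against 0.0205 to 4.69 for the 13 rows from Pcdhb2 to Pcdhb15, so that the ranges did not overlap. Pcdhb22, the last gene of the array (chr18:37678007-37681073), was highest at 77.4, followed by Pcdhb17 at 20.1 and Pcdhb20, a pseudogene in GENCODE, at 15.985. This division of the array was made after the levels were seen.

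Low levels limited what could be tested. Rows reaching 10 normalized counts in 2 or more libraries were fitted, which kept 16837 rows in all and 21 members (2 alpha, 13 beta and 6 gamma). The 7 rows left out were all beta: Pcdhb4, Pcdhb6, Pcdhb7, Pcdhb8, Pcdhb10, Pcdhb12 and Pcdhb13. Of these, Pcdhb6 reached 10.9 and 6.72 normalized counts, and Pcdhb7 14.5 and 5.76, in the iP+A Dox libraries, and the other 5 stayed under 10 in all libraries. A member was called at a limma adjusted p under 0.05 (Benjamini-Hochberg over the 16837 genes) with a log2 difference of at least 1.5 in either direction, on the scale of log2(normalized count + 1), which understates changes of low genes. Errors after ± are SEs of a difference with n = 2 per group. The members varied more between replicates than most genes: the median residual SD on the log2 scale was 0.8475 for alpha, 0.3952 for beta and 0.2515 for gamma rows, against 0.1881 over all fitted genes.

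The 3 cluster sums differed in direction between lines (plot of summed levels by library). The alpha sum was lower with Dox in iG+P (951 and 743 without, 29.4 and 36.9 with Dox), in iGPA (514 and 409 without, 17.4 and 72.7 with) and in iGfi1 (691 and 758 without, 99.6 and 148 with). As a ratio of geometric means, the level with Dox was 0.0403 of that without in iG+P and 0.0802 in iGPA. The iGPA log2 difference of -3.64 was -2.64 without Dox replicate 1 and -4.64 without Dox replicate 2. It was also lower in iAtoh1, a line without Gfi1 (596 and 614 without, 266 and 248 with Dox), and in iG+A (303 and 559 without, 279 and 156 with), and higher in iP+A (535 and 578 without, 822 and 646 with). The beta sum was higher with Dox in every line with Atoh1, by 1.81-fold in iAtoh1, 1.70-fold in iG+A, 1.92-fold in iP+A and 1.65-fold in iGPA, and lower in iGfi1, where it went from 661 and 781 to 281 and 296, and in iG+P (446 and 503 to 301 and 420). The gamma sum went from 13980 and 14217 to 6182 and 7601 in iGfi1, from 14072 and 13212 to 6138 and 5336 in iG+P and from 12698 and 11108 to 9477 and 10160 in iGPA. With Dox it was 1.52-fold that without in iAtoh1 and 1.20-fold in iG+A, and in iP+A the libraries overlapped. In iPou4f3 the Dox and No Dox libraries overlapped for all 3 sums. The sums are given with no test, and alpha has only 2 rows, of which Pcdhac2 carries most counts.

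**Figure D2:**
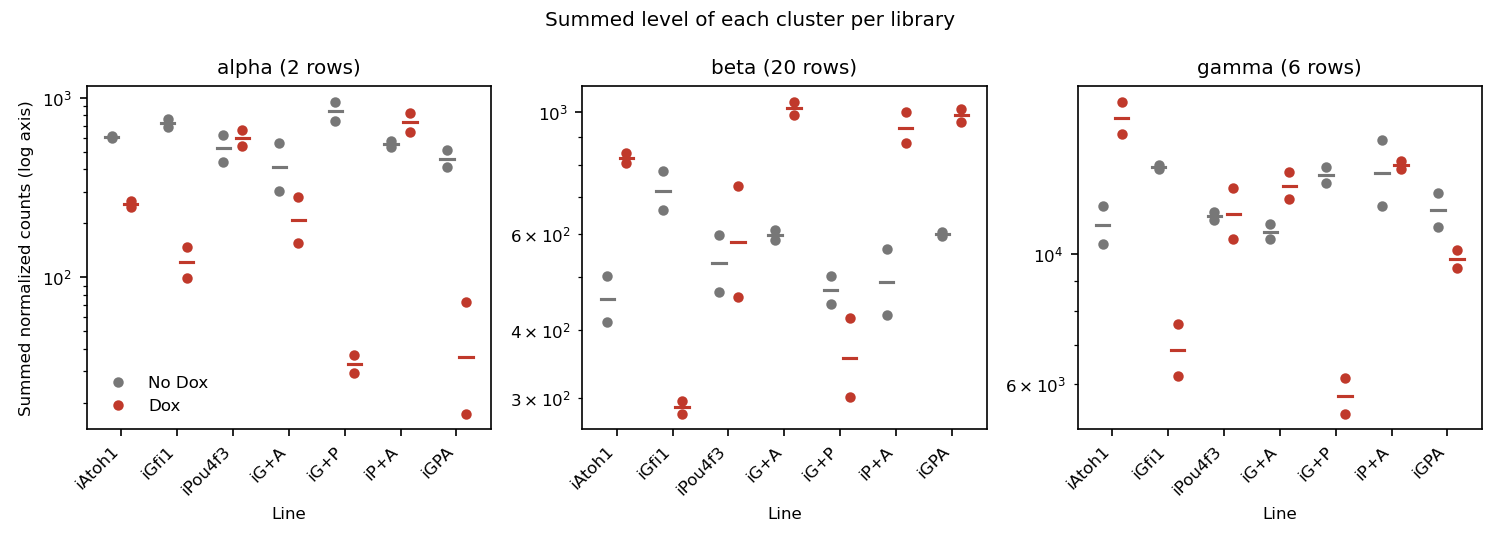
Summed normalized counts of the alpha, beta and gamma rows (log axis) in each library, by line, without Dox (grey) and with Dox (red). Points are single libraries and bars geometric means of 2 libraries. The alpha sums of iG+P and iGPA with Dox lie at 17.4 to 72.7, and those of all No Dox libraries at 303 or above.

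The call of single members was then compared with that of all genes. Members were called in 6 of the 7 lines, in 13 cases higher and in 19 lower, and 12 of the 21 members were called in at least 1 line. Of the 13 higher cases, 4 are Pcdhgb2, 1 in each line with Gfi1, which was tested only because it was high there. In iAtoh1, 3 of 21 members rose (2.89% of all genes did, and 5.4% were called in either direction) and none fell by limma (2.52% of all genes did), where 1 lower value, that of Pcdha1, had an unadjusted p under 0.05. In iGfi1, 1 rose and 6 fell (2.15% and 2.67% of all genes, 4.82% in either direction). The iG+A line had 2 rises and 2 falls (7.35% and 4.95% of all genes, 12.3% in either direction), and iG+P 1 rise and 5 falls (5.16% and 5.36%, 10.5% in either direction). For iP+A there were 3 rises and 1 fall (4.7% and 2.58%, 7.29% in either direction), and for iGPA 3 rises and 5 falls (8.65% and 5.31%, 14% in either direction). In iPou4f3 no member was called by limma, against 2.08% of all genes (1.47% higher and 0.606% lower). There, 2 members had an unadjusted p under 0.05, Pcdhb2 (3.39 and 3.34 without, 21.4 and 11.7 with Dox, adjusted p 0.0598) and Pcdhga1.

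The member with the clearest on and off pattern was Pcdhgb2, a B-type member of the gamma cluster. It was listed at 0 in 20 libraries, namely all 14 No Dox libraries and all Dox libraries of iAtoh1, iPou4f3 and iP+A. With Dox it had 532 and 229 normalized counts in iGfi1, 1095 and 1137 in iG+A, 524 and 286 in iG+P and 926 and 1185 in iGPA. Every line with Gfi1 in the cassette thus listed Pcdhgb2 above 0 with Dox, and no other library did. It passed the filter on low values through these 8 libraries alone, so it had to differ, and its values are a description. Fitted log2 values given for it further on are set by the 1 added to values at 0 and are neither folds nor bounds. The row took 8.60% and 3.01% of the summed gamma counts in iGfi1, 8.83% and 8.23% in iG+A, 8.53% and 5.37% in iG+P and 9.77% and 11.7% in iGPA. Since gamma transcripts share their last exons, these counts cannot be read as use of the Pcdhgb2 first exon alone.

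Pcdhga7, an A-type gamma member, was near 0 with Dox in lines that combine Pou4f3 with another factor. It went from 316 and 429.8 normalized counts without Dox to 22.6 and 0 with Dox in iG+P, from 397 and 330.3 to 0 and 10.6 in iP+A, and from 609 and 639 to 0 and 26.3 in iGPA. The groups did not overlap in these 3 lines. It fell in all 3, with log2 differences of -6.25 ± 1.504 in iG+P (SE, n = 2, limma adjusted p 0.00328), -6.74 ± 1.504 in iP+A (adjusted p 0.00292) and -6.90 ± 1.504 in iGPA (adjusted p 0.00103). In iPou4f3 it had 285 and 36.8 without and 57.8 and 72.5 with Dox, a difference of -0.66 ± 1.504 that was not called (adjusted p 0.866). In iAtoh1, iGfi1 and iG+A, Dox values of 138 to 537 overlapped those without. Pcdhga7 was the member with the largest spread between replicates (residual SD 1.71). In iGPA the value was -4.52 without Dox replicate 1 and still called. Without iG+P Dox replicate 2 the call in iG+P was lost (-3.97, adjusted p 0.0873), and without iP+A Dox replicate 1 that in iP+A (-4.97, adjusted p 0.0697).

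**Figure D3:**
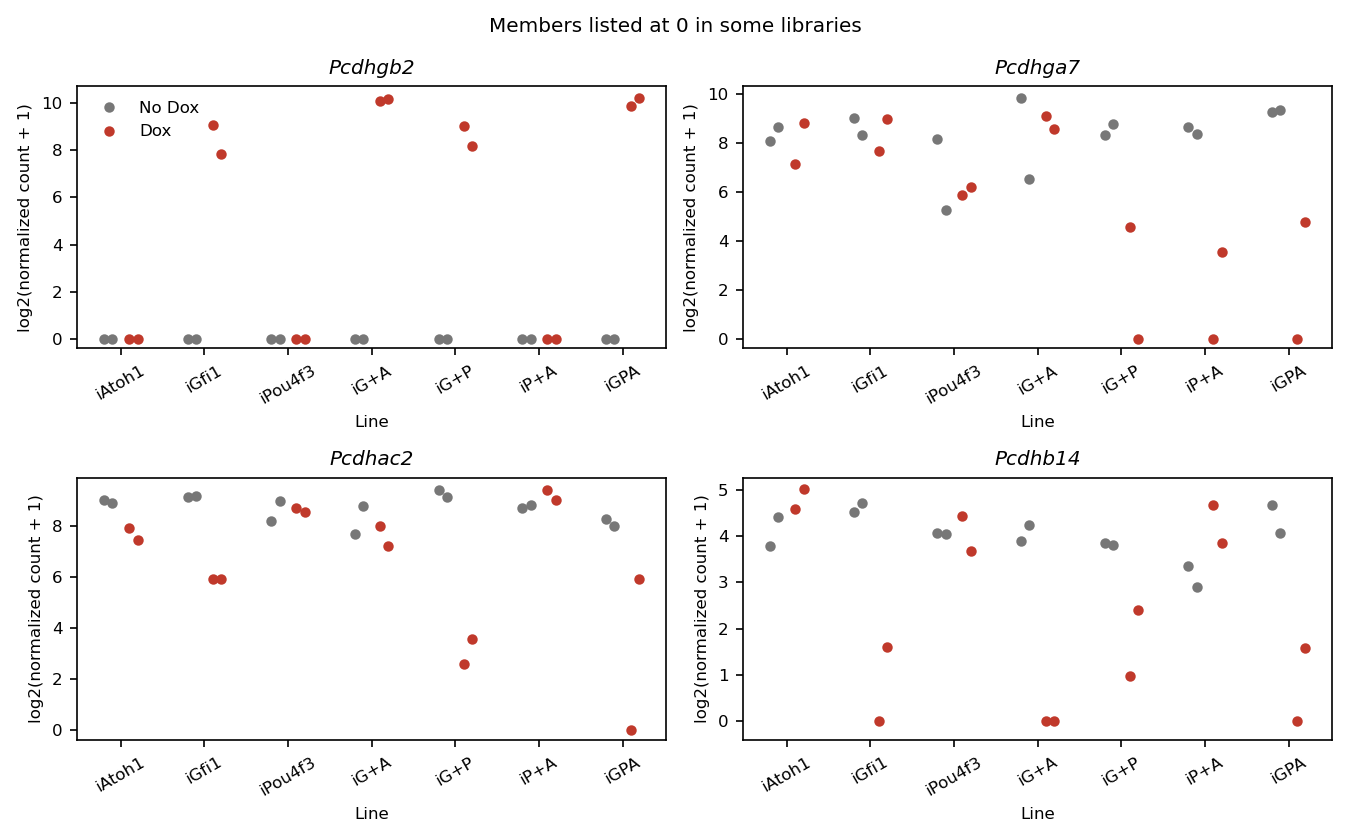
Level of Pcdhgb2, Pcdhga7, Pcdhac2 and Pcdhb14 in each library by line, as log2(normalized count + 1), without Dox (grey) and with Dox (red). Each point is 1 library. Pcdhgb2 is above 0 only in the Dox libraries of the 4 lines with Gfi1, and Pcdhb14 lies lowest in those same libraries.

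The other gamma rows were above 0 in all libraries. Pcdhgc3, the C-type member, went from 6393 and 6259.5 to 1665 and 1361 in iG+P and fell by 2.07 ± 0.1885 (limma adjusted p 1.585e-07). In iGfi1 it went from 5882 and 6012 to 1719.6 and 2857, a difference of -1.42 ± 0.1885 that was under the size for a call (adjusted p 4.22e-05). In iGPA it went from 4743.5 and 3648 to 2702 and 2706 (-0.62, adjusted p 0.0117), and in iG+A, which also carries Gfi1, the libraries overlapped at 3522 and 4271 without and 3412 and 3651 with Dox (-0.14, adjusted p 0.594). In the lines without Gfi1 the Dox and No Dox libraries did not overlap either, with no call: iAtoh1 had 4185 and 5160 without and 6536 and 7325 with Dox (0.57, adjusted p 0.0347), iP+A 7792 and 5668 without and 5394 and 4949 with Dox (-0.36, adjusted p 0.174) and iPou4f3 4651 and 4999 without and 4140 and 4094 with Dox (-0.23, adjusted p 0.581). Pcdhga2, named here after its values were seen, fell in iGPA, from 1198 and 935 to 465 and 215 (-1.74 ± 0.348, adjusted p 4.84e-04). It had 1113 and 565 with Dox in iG+A against 1913 and 1931 without (-1.28, adjusted p 0.0068). Without iGPA Dox replicate 2 the iGPA value was -1.18 and no longer called. Pcdhga1 and Pcdhgb8 were called in no line, with differences of -1.19 to 0.85 and -0.94 to 0.60.

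Both alpha rows were called in lines with Gfi1. Pcdhac2, the C-type alpha member, went from 689 and 571 to 4.90 and 10.8 in iG+P (-6.23 ± 1.04, limma adjusted p 1.34e-04). In iGPA it went from 309 and 254 to 0 and 59.6 (-5.17 ± 1.04, adjusted p 5.28e-04). It went from 561 and 583 to 59.9 and 58.8 in iGfi1 (-3.25 ± 1.04, adjusted p 0.0280). Leaving out any of the 4 iGfi1 libraries ended that call (adjusted p 0.0857 to 0.119). In iGPA the value was -2.21 without Dox replicate 1, which was listed at 0, and the call was lost in a fit of the iGPA libraries alone (adjusted p 0.081). In iG+A Pcdhac2 had 206 and 437 without and 254 and 148 with Dox, which overlapped, and in iP+A 416 and 455 without and 692 and 516 with Dox, which was not called (adjusted p 0.798). In iAtoh1 it had 519 and 484 without and 239.6 and 175 with Dox, which did not overlap but was not called (-1.29 ± 1.04, adjusted p 0.409).

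Pcdha1, the first member of the alpha array, fell in iG+A from 96.3 and 122 to 24.5 and 8.54 (-2.81 ± 0.478, limma adjusted p 1.44e-04). It fell in iG+P from 263 and 172 to 24.5 and 26.0 (-3.02 ± 0.478, adjusted p 7.52e-05) and in iGPA from 204.5 and 155 to 17.4 and 13.1 (-3.47 ± 0.478, adjusted p 1.09e-05). These 3 calls held without each library in turn. In iGfi1 it had 129.8 and 175 without and 39.6 and 89.7 with Dox, a difference of -1.32 that was under the size for a call (adjusted p 0.0485). In iP+A the 4 libraries lay between 119 and 130.4.

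The beta cluster split by line. In iAtoh1 all 13 tested members were higher with Dox (median log2 difference 0.84, 0.44 to 3.36), and in iGfi1 all 13 were lower (median -1.45, -3.81 to -0.65), beside medians over all fitted genes of -0.01 and 0.02. In iP+A 12 of 13 were higher (median 0.85), in iG+A and iGPA 10 of 13 each (medians 0.62 and 0.73), and in iG+P 11 of 13 were lower (median -0.53). In iPou4f3, 7 were higher and 6 lower. Differences past the threshold came mostly from the low genes of the 5′ stretch. In iGfi1, 5 of the 6 tested members from Pcdhb2 to Pcdhb15 fell (median -2.95), where 2.67% of all genes did. None of the 7 from Pcdhb16 to Pcdhb22 was called (median -1.17), although 6 of these 7 had a limma adjusted p under 0.05. The stretches were drawn after the levels were seen, and the contrast between them was not tested.

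**Figure D4:**
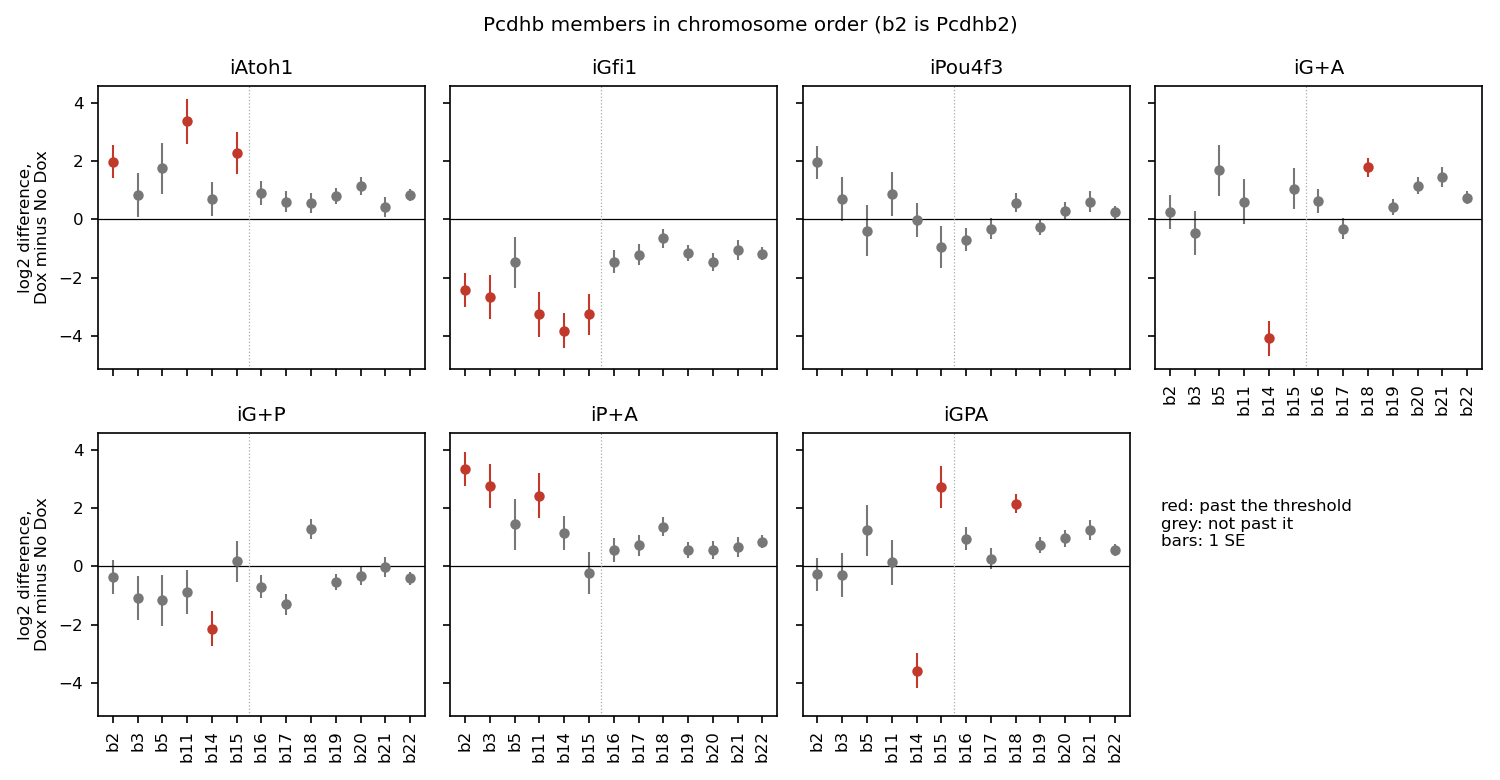
Log2 difference (Dox minus No Dox, limma, bars 1 SE, n = 2 per group) of the 13 tested Pcdhb members in chromosome order, 1 panel per line, with calls in red. The dotted line separates Pcdhb2 to Pcdhb15 from Pcdhb16 to Pcdhb22. All points are above 0 in iAtoh1 and below 0 in iGfi1.

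Pcdhb14, a gene of the 5′ stretch, was lowest wherever Gfi1 was induced. With Dox it had 0 and 2.06 normalized counts in iGfi1, 0 and 0 in iG+A, 0.983 and 4.33 in iG+P and 0 and 2.02 in iGPA. The same lines had 22.1 and 25.0, 13.9 and 17.9, 13.3 and 13.05, and 24.5 and 15.7 without Dox. The highest of the 8 Dox libraries with Gfi1 (4.33) lay under the lowest of the 20 other libraries (6.43), and in lines without Gfi1 the Dox libraries had 11.7 to 31.2. It fell in 3 lines, with log2 differences of -3.81 ± 0.592 in iGfi1 (limma adjusted p 1.70e-04), -2.13 ± 0.592 in iG+P (adjusted p 0.00902) and -3.57 ± 0.592 in iGPA (adjusted p 8.00e-05). In iG+A both Dox libraries were listed at 0, so no fold is given (adjusted p 2.88e-05). The iG+P call was lost without its Dox replicate 1 (-1.41, adjusted p 0.142).

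Pcdhb2, Pcdhb3 and Pcdhb11 rose in iP+A. Pcdhb2 went from 2.04 and 4.59 to 43.4 and 37.4 (3.33 ± 0.574, limma adjusted p 3.23e-04). Pcdhb3 went from 5.10 and 3.67 to 41.6 and 28.8 (2.74 ± 0.755, adjusted p 0.0125), a call lost without No Dox replicate 2 (adjusted p 0.0754) or Dox replicate 1 (0.0969). Pcdhb11 went from 15.3 and 0.918 to 43.4 and 19.2, and its call was lost without No Dox replicate 2 (0.88, adjusted p 0.457) or Dox replicate 1 (1.85, adjusted p 0.218). In iGPA, which adds Gfi1 to the same factors, Pcdhb2 had 6.11 and 4.91 without and 6.13 and 3.02 with Dox, and Pcdhb3 6.99 and 16.7 without and 14.3 and 5.04 with Dox. Neither was called there. In iAtoh1, Pcdhb2 went from 0.976 and 2.45 to 10.0 and 8.52 (1.97 ± 0.574, adjusted p 0.0186) and Pcdhb11 from 0 and 2.45 to 19.2 and 17.04 (3.36 ± 0.764, adjusted p 0.00390). Pcdhb15 went from 0 and 1.63 to 8.21 and 5.68 in iAtoh1 (2.27 ± 0.708, adjusted p 0.0266). These are a few reads per library, and leaving out iAtoh1 No Dox replicate 1 ended all 3 iAtoh1 calls (adjusted p 0.0712 to 0.235), as did a fit of the iAtoh1 libraries alone (0.0558 to 0.0882). Without iAtoh1 Dox replicate 1 or 2, the calls of Pcdhb2 and Pcdhb15 were lost.

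The same low beta genes fell in iGfi1. Pcdhb2 went from 9.04 and 10.0 to 2.90 and 0, Pcdhb3 from 15.04 and 9.01 to 0 and 3.09, and Pcdhb11 from 10.02 and 15.02 to 0.966 and 0. Pcdhb15 had 8.03 and 9.01 without Dox and was listed at 0 in both Dox libraries. The log2 differences were -2.41 ± 0.574 (Pcdhb2, limma adjusted p 0.00469), -2.65 ± 0.755 (Pcdhb3, 0.0147) and -3.24 ± 0.764 (Pcdhb11, 0.00441). Pcdhb15 was called in both directions: it was listed at 0 in both iGPA No Dox libraries and at 6.13 and 5.04 with Dox there. With a pseudocount of 5 neither its iGfi1 call (-1.43) nor its iGPA call (1.08) held. Without iGfi1 Dox replicate 1 the Pcdhb3 value was -1.63 (adjusted p 0.230), without iGfi1 No Dox replicate 1 it was -2.31 (adjusted p 0.104), and without Dox replicate 2 the Pcdhb2 value was -1.43 (adjusted p 0.0906).

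Of the 7 genes at the 3′ end, Pcdhb18 was called, in iG+A and iGPA. It went from 34.8 and 37.0 to 158 and 100.1 in iG+A (1.78 ± 0.328, limma adjusted p 3.02e-04). In iGPA it went from 21.8 and 30.5 to 119.7 and 115 (2.14 ± 0.328, adjusted p 3.52e-05). It had 15.4 and 19.1 without and 33.4 and 55.2 with Dox in iG+P (1.28, adjusted p 0.00519) and 23.4 and 19.3 without and 57.0 and 54.8 with Dox in iP+A (1.35, adjusted p 0.00531), which is under the size for a call. Its Dox libraries thus lay above its No Dox libraries in these 4 lines, and also in iPou4f3 (16.9 and 21.2 without, 31.2 and 26.4 with Dox, adjusted p 0.379). In iAtoh1 the libraries overlapped. In iGfi1 it had 42.1 and 36.0 without and 24.2 and 24.7 with Dox (adjusted p 0.154). Without iG+A Dox replicate 1 the iG+A value was 1.45 and under the size for a call.

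Pcdhb22, the beta gene with the highest level, moved with the cluster but by less than the size for a call. It went from 185 and 225 to 372 and 359 in iAtoh1 (0.84 ± 0.214, limma adjusted p 0.00838). In iGfi1 it had 250.3 and 313 without and 119 and 129 with Dox (-1.17 ± 0.214, adjusted p 6.90e-04). Pcdhb20 had 43.0 and 48.1 without and 100.4 and 103 with Dox in iAtoh1 (1.15 ± 0.299, adjusted p 0.00973). Pcdhb17 had 43.9 to 85.1 without Dox over all lines and was lowest with Dox in iG+P (14.8 and 34.6).

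Dox effects were compared between lines in the same fit: the mean effect over the 4 lines with Gfi1 minus that over the 3 without, and likewise for Atoh1 and Pou4f3. For Gfi1, 1 member was higher and 7 were lower (3.88% and 2.96% of all genes, 6.84% in either direction). The lines are not balanced for the other factors, since no line carries an empty cassette: Atoh1 and Pou4f3 are each in 2 of the 4 lines with Gfi1 and in 2 of the 3 without, and likewise for the other factors. Pcdhgb2, tested only because it was high in these lines, was the member that was higher. Lower were Pcdha1 (-2.52 ± 0.365, limma adjusted p 3.11e-05), Pcdhac2 (-3.55 ± 0.798, 0.00184), Pcdhb2 (-3.11, a description), Pcdhb3 (-2.55 ± 0.577, 0.00199), Pcdhb11 (-3.06 ± 0.584, 4.50e-04), Pcdhb14 (-4.00 ± 0.452, 2.06e-06) and Pcdhga2 (-1.70 ± 0.266, 6.77e-05). Pcdhb2 passed the filter on low values through 6 libraries, 5 with Dox in lines without Gfi1 and 1 without Dox in iGfi1, all of which make this difference negative. The other 6 lower calls held when any 1 of the 28 libraries was left out. The size of the Pcdhb14 difference depends on the 1 added to values, since it was listed at 0 in both iG+A Dox libraries. Another 5 members had an adjusted p under 0.05 with differences of -1.06 to -0.70.

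For Atoh1, 6 members were higher (2.99% of all genes were, and 4.59% in either direction) and all 6 were beta genes. Falls in lines without Atoh1 also enter this difference. Pcdhb16 was called in no line (0.57 to 0.95 with Atoh1, -1.45 to -0.69 without). Pcdhb15 rose in iAtoh1 and iGPA, but had -0.22 in iP+A and -3.25 in iGfi1. Pcdhb11 rose in iAtoh1 and iP+A, but had 0.60 in iG+A, 0.14 in iGPA and -3.24 in iGfi1. Pcdhb15 (2.80 ± 0.540) and Pcdhb11 (2.72 ± 0.584) had limma adjusted p of 6.36e-04 and 0.00155, and both held without each library, as did Pcdhb16 (1.70, named after its values were seen). With a pseudocount of 5 the Pcdhb15 difference was 1.25 and under the size for a call. Pcdhb3 (1.72) and Pcdhb2 (1.59) did not: each call was lost without any 1 of 7 libraries, with Pcdhb2 as low as 1.26 and the adjusted p of Pcdhb3 as high as 0.0728. Another 9 members had an adjusted p under 0.05 with differences of 0.90 to 1.45, among them Pcdhgc3 (1.10) and Pcdhga1 (1.08), and all 13 beta members were on the positive side (median 1.45). The alpha rows were not called, with 1.49 for Pcdhac2 and -0.60 for Pcdha1. Pcdhb5, the other of the 6, passed the filter on low values through 3 Dox libraries of lines with Atoh1, 2 of iP+A (17.2 and 10.6) and 1 of iGPA (12.1), so it had to be higher there and its difference of 2.54 is a description.

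**Figure D5:**
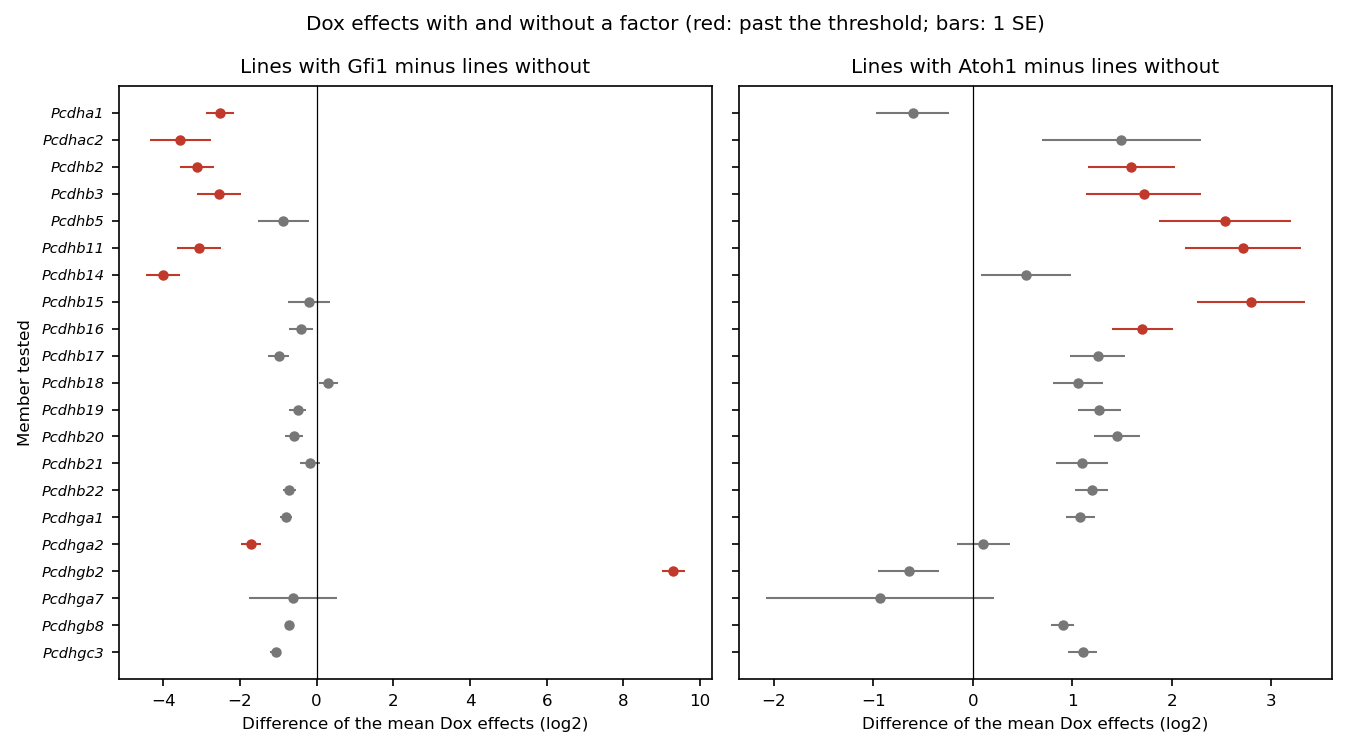
Difference of the mean Dox effects (log2, bars 1 SE) between lines with and without Gfi1 (left) and with and without Atoh1 (right) for the 21 tested members, with calls in red. On the left 7 members are called below 0 and Pcdhgb2 above, and on the right 6 beta members are called above 0. The Pcdhgb2 value depends on the added 1, as the other lines are at 0.

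For Pou4f3, 2 members were lower (0.529% of all genes were, and 2.34% in either direction) and both were gamma rows. Pcdhga7 differed by -5.11 ± 1.15 (limma adjusted p 0.00692). Pcdhgb2 was lower in the lines with Pou4f3 (-1.53, given as a description). Gfi1 is in 2 of the 4 lines with Pou4f3 and in 2 of the 3 without, and Pcdhgb2 was listed at 0 in every line without Gfi1, which alone lowers the mean over the lines with Pou4f3. Among lines with Gfi1 the fitted Dox effect was 8.60 in iG+P beside 8.45 in iGfi1, and 10.03 in iGPA beside 10.13 in iG+A. Its Dox values were 524 and 286 in iG+P against 532 and 229 in iGfi1, which overlapped, and 926 and 1185 in iGPA against 1095 and 1137 in iG+A, which also overlapped. Left out in turn, iGfi1 Dox replicate 1, iG+P Dox replicate 2 and iGPA Dox replicate 1 each put the Pcdhgb2 difference under the size for a call, at -1.49 to -1.33. Of the 13 beta members 12 had a positive value (median 0.34), and none was called.

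The lines iGPA and iP+A differ in their cassettes by Gfi1. The Dox effect in iGPA minus that in iP+A was higher for 2 members and lower for 5 (4.76% and 2.84% of all genes, 7.6% in either direction). Lower were Pcdha1 (-3.58 ± 0.676, limma adjusted p 0.00125), Pcdhac2 (-5.63 ± 1.48, 0.0125, and -2.67 without iGPA Dox replicate 1, and not called in a fit of the compared groups alone, adjusted p 0.123), Pcdhb2 (-3.60 ± 0.812, 0.00458), Pcdhb14 (-4.71 ± 0.837, 7.80e-04) and Pcdhga2 (-2.47 ± 0.492, 0.00189). The higher members were Pcdhgb2, described above, and Pcdhb15 (2.93 ± 1.00, adjusted p 0.0488), and the Pcdhb15 call was lost without any 1 of the 8 libraries and with the replicate number as a block (adjusted p 0.0589). These libraries also enter the comparison of lines with and without Gfi1, so the results are not independent of each other.

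Between the 7 untreated lines, 1 member was called, as were 3.03% of all genes. A call here needed an adjusted p under 0.05 in limma's F test and a largest log2 difference of at least 1.5. Pcdhgc3 also had an F test adjusted p under 0.05 (0.0340), but its largest difference of 0.777 was under that size. The member called, Pcdhb15, was listed at 0 in both iGPA libraries and was highest in iGfi1 (8.03 and 9.01), iPou4f3 (10.2 and 6.68) and iP+A (11.2 and 5.504). It reached 10 normalized counts in 3 libraries: these untreated ones of iPou4f3 and iP+A and 1 iPou4f3 Dox library (10.7). High untreated groups thus carried it past the filter on low values, and its difference is a description. With a pseudocount of 5, 0 members differed, and with the replicate block 2 did.

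Genes for the machinery that chooses protocadherin promoters were read from a fixed list. Of its 27 genes for chromatin looping by CTCF and cohesin, DNA methylation and silencing at these clusters, 24 were tested and none was called by limma in any line. Between 4 (iPou4f3) and 15 (iG+A) of them had an unadjusted p under 0.05, and their differences ran from -0.76 to 1.46. Of 20 genes for partners and downstream signals of the protocadherins, all tested, 1 fell in iAtoh1, 1 rose in iG+A, 1 rose and 1 fell in iG+P, 1 rose in iP+A and 3 rose in iGPA. Beside both lists, the share of all genes called in either direction ran from 2.08% (iPou4f3) to 14% (iGPA). Cyfip2, a subunit of the WAVE complex that regulates actin, rose in iGPA from 717 and 393 to 11930 and 11350 (4.45 ± 0.2698, limma adjusted p 5.27e-10) and also rose in iG+A, iG+P and iP+A. Ret, a receptor tyrosine kinase, fell in iAtoh1 (-1.81), and Marcks, a membrane and actin binding protein, in iG+P (-1.69).

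Protocadherins outside the clusters are encoded by separate genes and were called in all 7 lines. Of 13 tested, the number that rose was lowest in iAtoh1 (2) and highest in iG+P (7), with 3 each in iPou4f3 and iP+A, 4 for iGfi1 and 5 each for iG+A and iGPA. Those that fell numbered 2 each for iG+A and iG+P and 3 for iGPA. Among all genes, 1.47% (iPou4f3) to 8.65% (iGPA) rose and 0.606% (iPou4f3) to 5.36% (iG+P) fell. Pcdh15, a tip link protein of the hair bundle, went from 82.1 and 63.6 to 2863 and 2099 in iGPA (5.07 ± 0.357, limma adjusted p 3.29e-09). Pcdh20 went from 3.48 and 4.48 to 1169 and 825 in iG+A (7.63 ± 0.389, adjusted p 1.87e-10), and Pcdh10 from 34.4 and 10.5 to 531 and 928 in the same line (5.12 ± 0.5496, adjusted p 9.36e-07). Whether the clustered and the other protocadherins differ in how often they were called was not tested.

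Neuronal markers moved in lines where beta members rose and in others. Of 17 tested, 15 rose in iP+A, 12 in iGPA, 6 in iAtoh1, 6 in iG+A, 3 in iPou4f3 and 3 in iG+P, and none rose in iGfi1, where 4 had an unadjusted p under 0.05. Those that fell were 1 (iAtoh1), 1 (iGfi1), 2 (iG+A), 1 (iG+P) and 1 (iGPA), among them Gap43 in iGfi1 (-2.59). Their summed level went from 6308 and 5966 to 39670 and 31600 in iP+A, and from 4212 and 5055 to 15080 and 14740 in iGPA. Hair cell markers, of which 3 of 9 are the transgenes, rose in 2 (iAtoh1, iGfi1), 3 (iPou4f3), 5 (iG+P, iP+A), 6 (iG+A) and 7 (iGPA) cases. Of 12 pluripotency markers 1 (iAtoh1, iGfi1), 3 (iG+P), 5 (iGPA), 6 (iG+A) and 8 (iP+A) fell, and of 10 endothelial markers 2 (iAtoh1), 4 (iG+P), 1 (iP+A) and 1 (iGPA). The shares of all genes were 1.47% (iPou4f3) to 8.65% (iGPA) for rises and 0.606% (iPou4f3) to 5.36% (iG+P) for falls. The part of these marker changes in the protocadherin values was not tested.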

How the data were processed

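RNA-seq was analysed from 28 libraries. Per the labels and methods, the authors trimmed reads with cutadapt, quantified them by pseudo-alignment (kallisto, UCSC knownGene, mm9), imported the estimates with tximport and normalized them with DESeq2 (versions not given in the sources used here). The deposited values are log2(normalized count + 1) per Entrez ID. Between 70.62% and 79.44% of values up to 20 were within 0.05 of whole reads, so reads were not recovered and no count test was run. All columns were used.

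Symbols came from RefSeq. limma 3.58.1 (R 4.3.3) fitted 14 groups together with a mean-variance trend and 14 residual degrees of freedom, with a pseudocount of 1, and was tested on simulated data. p-values rest on the spread between the 2 libraries of a group, estimated over the 14 groups. Clone, sorting and library preparation are not separated in it. The sample labels state no pairing. Deviations of Dox and No Dox libraries with the same replicate number correlated at 0.103 to 0.246 in the 7 lines. The main fit ignored this, and a block by replicate number was an alternative. No replicate pair was identical.

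Members named are the C-type members, the 3 highest of each cluster, per comparison the 3 called furthest in each direction, members at 0 in 1 replicate and above 50 in the other, and up to 3 genes per list. Of the lists, those for promoter choice, partners and other protocadherins are given by gene, the cell type markers by counts. Members, lists and this rule were chosen with earlier results of these data known. Alternatives were pseudocounts of 0.5 and 5, no filter or 50 counts, quantile normalization, the block, own groups only, and leaving out each library. Sequences are not reported here.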

Additional observations from a re-analysis of the deposited data

Results flagged for a closer look

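These are the members whose Dox effects differed between groups of lines, each by a test of the difference itself in limma (log2 scale, adjusted p over all fitted genes), with no explanation weighed. Between lines with and without Gfi1, the difference was -2.52 for Pcdha1, -3.55 for Pcdhac2, -3.11 for Pcdhb2, -2.55 for Pcdhb3, -3.06 for Pcdhb11, -4.00 for Pcdhb14 and -1.70 for Pcdhga2. Pcdhgb2 was higher by a fitted 9.30, which is set by the 1 added to values listed at 0 and is no bound. The size for Pcdhb14 also depends on the added 1, as it was listed at 0 in both iG+A Dox libraries. Between lines with and without Atoh1, the difference was 1.59 for Pcdhb2, 1.72 for Pcdhb3, 2.54 for Pcdhb5, 2.72 for Pcdhb11, 2.80 for Pcdhb15 and 1.70 for Pcdhb16. Pcdhb5 for Atoh1, and Pcdhgb2 and Pcdhb2 for Gfi1, passed the filter on low values only through libraries on the side that fixes the sign, so these values are descriptions. For Pou4f3 it was -5.11 for Pcdhga7 and -1.53 for Pcdhgb2. For Pcdhgb2, Gfi1 is in 2 of the 4 lines with Pou4f3 and in 2 of the 3 without, and among lines with Gfi1 the fitted effect was 8.60 (iG+P) beside 8.45 (iGfi1) and 10.03 (iGPA) beside 10.13 (iG+A).

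Between iGPA and iP+A, the Dox effect differed by -3.58 for Pcdha1, -5.63 for Pcdhac2 (-2.67 without iGPA Dox replicate 1), -3.60 for Pcdhb2, -4.71 for Pcdhb14, -2.47 for Pcdhga2 and 2.93 for Pcdhb15. The fitted Pcdhgb2 value was 10.03, with iP+A at 0. Leaving aside the values named as descriptions and all of Pcdhgb2, 13 of the other 18 differences held under every setting that tested them and without each library in turn. No group had the 4 or more libraries that a check for a single library far from the others needs.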

How the results depend on the processing

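No value changed sign among the called members. Leaving aside Pcdhgb2, Pcdhb2 for Gfi1 and Pcdhb5 for Atoh1, which the filter fixed, 12 of 28 calls in single lines and 13 of 18 between lines held under every setting that tested them and without each library. Only counts that changed by over 1.5 times are given. Smaller changes are left out, such as 8 falls in iGfi1 with quantile normalization (main 6). With a pseudocount of 5, 1 member rose in iAtoh1, 3 fell in iGfi1, 3 were higher for Atoh1, 1 lower for Pou4f3, 1 higher in iGPA minus iP+A and 0 differed between untreated lines. Without a filter, 2 rose in iG+P, 5 in iP+A and 1 was higher for Pou4f3. With a filter of 50, 0 rose in iAtoh1, 1 fell in iGfi1, 1 fell in iG+A, 0 rose in iP+A, 3 were lower for Gfi1, 1 higher for Atoh1, 1 higher and 3 lower in iGPA minus iP+A and 0 differed between untreated lines, as fewer members were tested. With quantile normalization, 1 rose in iPou4f3, 1 was higher in iGPA minus iP+A, and the beta sum difference was 0.546 in iG+A (main 0.769) and 0.380 in iGPA (main 0.724). With the replicate block, which pairs Dox and No Dox by replicate number, 1 was higher in iGPA minus iP+A and 2 differed between untreated lines, and it changed no other count by over 1.5 times. With only the groups compared in the fit, 0 rose in iAtoh1. Where construction does not show it, the cause was not tested.

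Pcdhac2 in iGfi1 was not called with a pseudocount of 0.5 (adjusted p 0.0533). With a pseudocount of 5, calls lost were Pcdhb15 in iAtoh1 (1.04), iGfi1 (-1.43) and iGPA (1.08), Pcdhb2 in iAtoh1 (1.10) and iGfi1 (-1.21), Pcdhb3 in iGfi1 (-1.40), Pcdhb14 in iG+P (-1.28), Pcdhb15 in iGPA minus iP+A (1.23), Pcdhgb2 for Pou4f3 (-1.15), and for Atoh1 Pcdhb2 (0.91), Pcdhb3 (1.04), Pcdhb5 (1.21) and Pcdhb15 (1.25). For the Atoh1 difference, Pcdhb2 was lost without iAtoh1 No Dox replicate 1, iGfi1 Dox replicate 2, iPou4f3 Dox replicate 2, iG+A No Dox replicate 2, iG+P No Dox replicate 1, iP+A No Dox replicate 1 or iGPA Dox replicate 1, and Pcdhb3 without iGfi1 No Dox or Dox replicate 1, iPou4f3 No Dox replicate 1 or Dox replicate 2, iG+P No Dox or Dox replicate 1, or iGPA Dox replicate 1. In fits of their own groups alone, Pcdhb2 (0.0761) and Pcdhb3 (0.0698) in iGfi1, Pcdhb14 in iG+P (0.0531), Pcdhb11 in iP+A (0.218) and Pcdhac2 in iGPA minus iP+A (0.123) were not called by limma.

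With each library left out in turn, members that rose in iAtoh1 ranged from 0 to 3 and that fell from 0 to 1. Those that rose ranged from 1 to 2 in iG+P and from 1 to 3 in iP+A, and those that fell from 0 to 1 in iP+A. For Pou4f3, 0 to 1 were higher and 1 to 3 lower, 1 was higher in iGPA minus iP+A in all 8 cases, and 1 to 2 differed between untreated lines. The log2 differences of the sums ranged from -1.19 to -0.89 for gamma in iGfi1, from -0.21 to 0.47 for beta and from -0.13 to 0.16 for gamma in iPou4f3, from -1.42 to -0.53 for alpha in iG+A, from -0.65 to -0.17 for beta in iG+P, from 0.74 to 1.14 for beta and from -0.14 to 0.23 for gamma in iP+A, and from -4.64 to -2.64 for alpha in iGPA.

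With 2 libraries per group and levels of a few reads for Pcdhb2 to Pcdhb15, changes under the threshold cannot be read as absent. The alpha and gamma values depend on how reads in shared exons were split.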

Other observations

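The make-up of the gamma sum differed between Dox and No Dox libraries. Pcdhgc3 made up 32.8% to 49.8% of the summed gamma counts in the 14 No Dox libraries, 25.5% to 37.6% in the 8 Dox libraries with Gfi1 and 31.9% to 40.8% in the 6 without. Within lines its Dox share lay under both No Dox shares in all 4 lines with Gfi1, and also in iP+A and iPou4f3. Pcdhga2 went from 18.1% and 17.2% of the sum to 8.98% and 4.09% in iG+A and from 9.44% and 8.41% to 4.91% and 2.12% in iGPA. It went the other way, without overlap, in iG+P (11.1% and 7.17% to 16.1% and 14.5%), iP+A (8.10% and 8.60% to 16.4% and 10.97%) and iAtoh1 (7.97% and 10.7% to 11.6% and 11.8%). Without Pcdhgb2, the gamma sum was 0.738 of the No Dox level in iGPA, against 0.826 with it, and 1.10 against 1.20 in iG+A. These shares are values with no test, and reads in shared exons enter all of them.

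Without Pcdhb22, the beta sum with Dox was 1.82 times that without in iAtoh1, 1.72 in iG+A, 1.985 in iP+A, 1.81 in iGPA and 0.375 in iGfi1, the same directions as with it.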
